A study of Caenorhabditis elegans with 27 samples.

Results

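In whole larvae of Caenorhabditis elegans, 53 genes stood at 0.5 of their starting level or less after 30 min on auxin plates, both in the strain CA1200 and in the strain AM05. They were chosen among 20390 genes per library by a fixed rule. The gene had to lie on chromosome I, II, III, IV or V and to span at least 600 bp and under 15000 bp. Its mean scaled TPM (a transcript abundance corrected for length and depth, put on one scale across libraries) at 0 min had to reach 5 in both strains, and the ratio of (mean at 30 min + 1) to (mean at 0 min + 1) had to be at most 0.5 in both. The limits on chromosome and span left 16061 genes, the level limit left 6221, and 53 met the ratio. The low values at 30 min are therefore what selected the genes and are given as description, without a test.

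The study degraded proteins that act on chromosome topology and asked what this does to transcription. Each tagged protein carries a degron that the plant F-box protein TIR1 marks for the proteasome once auxin is given. CA1200 is known as a strain with TIR1 driven in somatic cells by the eft-3 promoter, its label gives no tagged target, and it is the control. AM05 carries top-1::degron::GFP, SS01A carries top-2::degron::GFP and AM01 carries dpy-27::degron::GFP, and all 4 strains met the same 1 mM indole-3-acetic acid.

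L1 larvae hatched without food were grown for 24 h at 22 °C to stage L2/L3, washed 3 times in buffer and split between auxin plates and plain plates. CA1200, AM05 and SS01A were sampled at 0, 30, 60 and 120 min. AM01 was sampled without auxin and at 120 min. Its second library at each time came from mixed-stage larvae and is called replicate 2. Each group held 2 libraries apart from CA1200 at 60 min, which held 1, giving 27 libraries. The series calls them biological replicates and names no separate cultures, so p-values measure the spread between these libraries. When and where the 0 min aliquots were held before collection is not given beyond the plain plates. All times of auxin in the control strain share the handling of the degron strains. Auxin, transfer to a fresh plate, time since washing and larval growth over that time therefore cannot be told apart.

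Several of the 53 genes belong to the heat shock response. In this response the transcription factor HSF-1 switches on chaperone genes when proteins misfold, and HSP70 chaperones, their HSP40 partners and their nucleotide exchange factors then refold or remove damaged proteins. rhy-1 stands in another stress pathway, where the oxygen sensor EGL-9 holds down the hypoxia factor HIF-1 and RHY-1, a membrane protein related to acyltransferases, acts to inhibit HIF-1 as well. Other genes of known role act in fat metabolism, nuclear receptor signalling, the cytoskeleton and neurons.

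Library depth, estimated from the smallest steps of the deposited FPKM values, ran from 5.73 to 21.3 M fragments. Replicate 1 of SS01A at its 4 times and of AM01 at its 2 times stood apart. These 6 libraries held 5.73 to 9.39 M fragments, against 11.6 to 21.3 M in the other 21. Their median TPM was 5.10 to 6.83 against 1.27 to 2.53, and ribosomal protein genes took 16.50% to 24.6% of TPM against 30.6% to 37.3%. Of 36 tissue markers found among 37 named, all 36 had a mean of at least 1 scaled TPM, and 6 vitellogenin genes of adult yolk production summed to at most 1.08 in any library. In whole animals, fewer cells of one type and less RNA per cell cannot be told apart.

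Most of the genes were still low at 120 min. A ratio of at least 0.8 at 120 min over 0 min is called a return here, and a ratio of at most 0.5 is called still low. In CA1200 5 of the 53 genes had returned, 8 were between the limits and 40 were still low, while among the 6221 genes at the same starting level 75.1% had a ratio of at least 0.8 and 2.97% a ratio of at most 0.5. In AM05 1 gene had returned, 6 were between and 46 were still low, against 63.7% and 8.95% of the 6221. At 60 min 48 genes in CA1200, over 1 library, and 49 in AM05 had a ratio of at most 0.5, beside 3.47% and 6.64%. ifc-1 was the gene that returned in both strains, and 37 genes were still low in both. The 0 min libraries in these ratios are among those that chose the genes for a high start, so the counts are a description, and nothing is read from the shares beside them. The mean at 120 min was below the mean at 30 min in 28 genes in CA1200 and in 32 in AM05. The 30 min libraries in these last counts chose the genes for low values, and the share of eligible genes was not counted. These counts are a description only. Because most of the genes had not returned at 120 min, they are called genes lower at 30 min below, not genes with a dip.

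**Figure D1:**
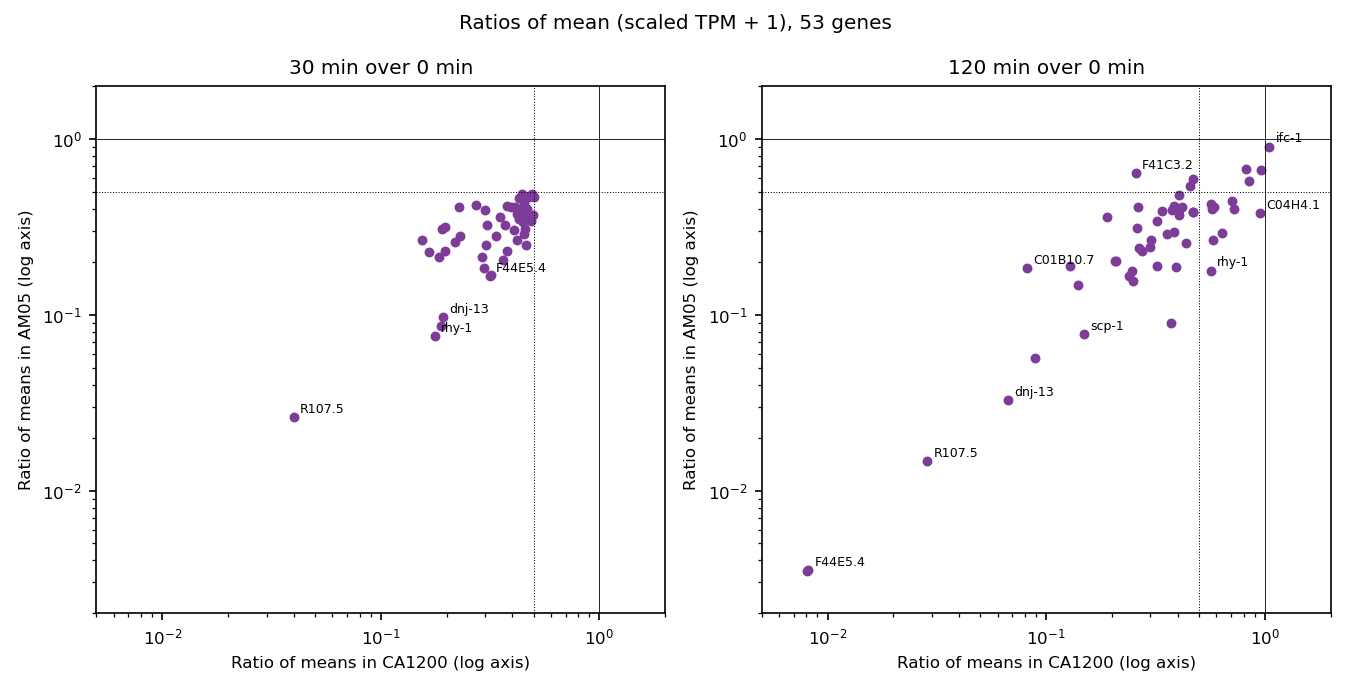
Ratio of mean (scaled TPM + 1) at 30 min over 0 min (left) and at 120 min over 0 min (right) in CA1200 (horizontal, log axis) and AM05 (vertical, log axis), 1 point per gene, 53 genes; dotted lines mark 0.5, where the 30 min panel is bounded by the choice of genes, and thin lines mark 1. At 120 min 37 genes lie at or below 0.5 in both strains, and ifc-1 alone lies above 0.8 in both.

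The 53 genes were scattered in size and place. Their median span was 2823 bp against 2589 bp among the 6221 eligible genes, and the median of the largest exon count was 6 in both. The mean level at 0 min over the 4 libraries of CA1200 and AM05 had a median of 32.7 scaled TPM in the 53 genes and 20.8 in the eligible genes. By chromosome, 8 lay on I, 13 on II, 9 on III, 8 on IV and 15 on V, or 15.1%, 24.5%, 17%, 15.1% and 28.3%, against 20.3%, 19.9%, 20.5%, 18.9% and 20.3% of the eligible genes. 4 pairs lay within 10000 bp of each other. F44E5.4 and F44E5.5 sit 368 bp apart on opposite strands of chromosome II, R107.5 and cls-2 sit 1264 bp apart on opposite strands of chromosome III, and on chromosome V pgph-3 and pgph-2 are adjacent, with pgph-1 lying 4 places from pgph-3. F44E5.4 and F44E5.5 are near-identical HSP70 genes and the pgph genes are close relatives, so how reads were split within each group is uncertain. 30 genes carry a letter name and 23 only a sequence name. 11 further genes met the level and ratio but lay outside the limits: 4 are X-linked, among them elt-2, the GATA factor of the intestine, 4 are shorter than 600 bp and 3 are 15 kb or longer, among them the chromatin remodeller gene nurf-1.

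At the edge of the rule, let-355 had ratios of 0.492 in CA1200 and 0.488 in AM05, fmo-4 had 0.498 and 0.369, and ifc-1 had 0.50 and 0.467. Just outside, lad-2 had 0.489 and 0.506, rei-1 had 0.507 and 0.385, and fkb-5 had 0.446 and 0.508. A ratio of at most 0.5 was met by 1.17% of the eligible genes in CA1200 and by 2.65% in AM05. All 53 were lower at 30 min in each of the 4 same-numbered pairs of libraries, and 23 were at 0.5 or less in all 4 pairs. Both 30 min levels lay below both 0 min levels for 53 of the genes in CA1200 and for 47 in AM05, beside 14.2% and 20.9% of the eligible genes; these are the libraries of the rule, so nothing is read from the counts.

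**Figure D2:**
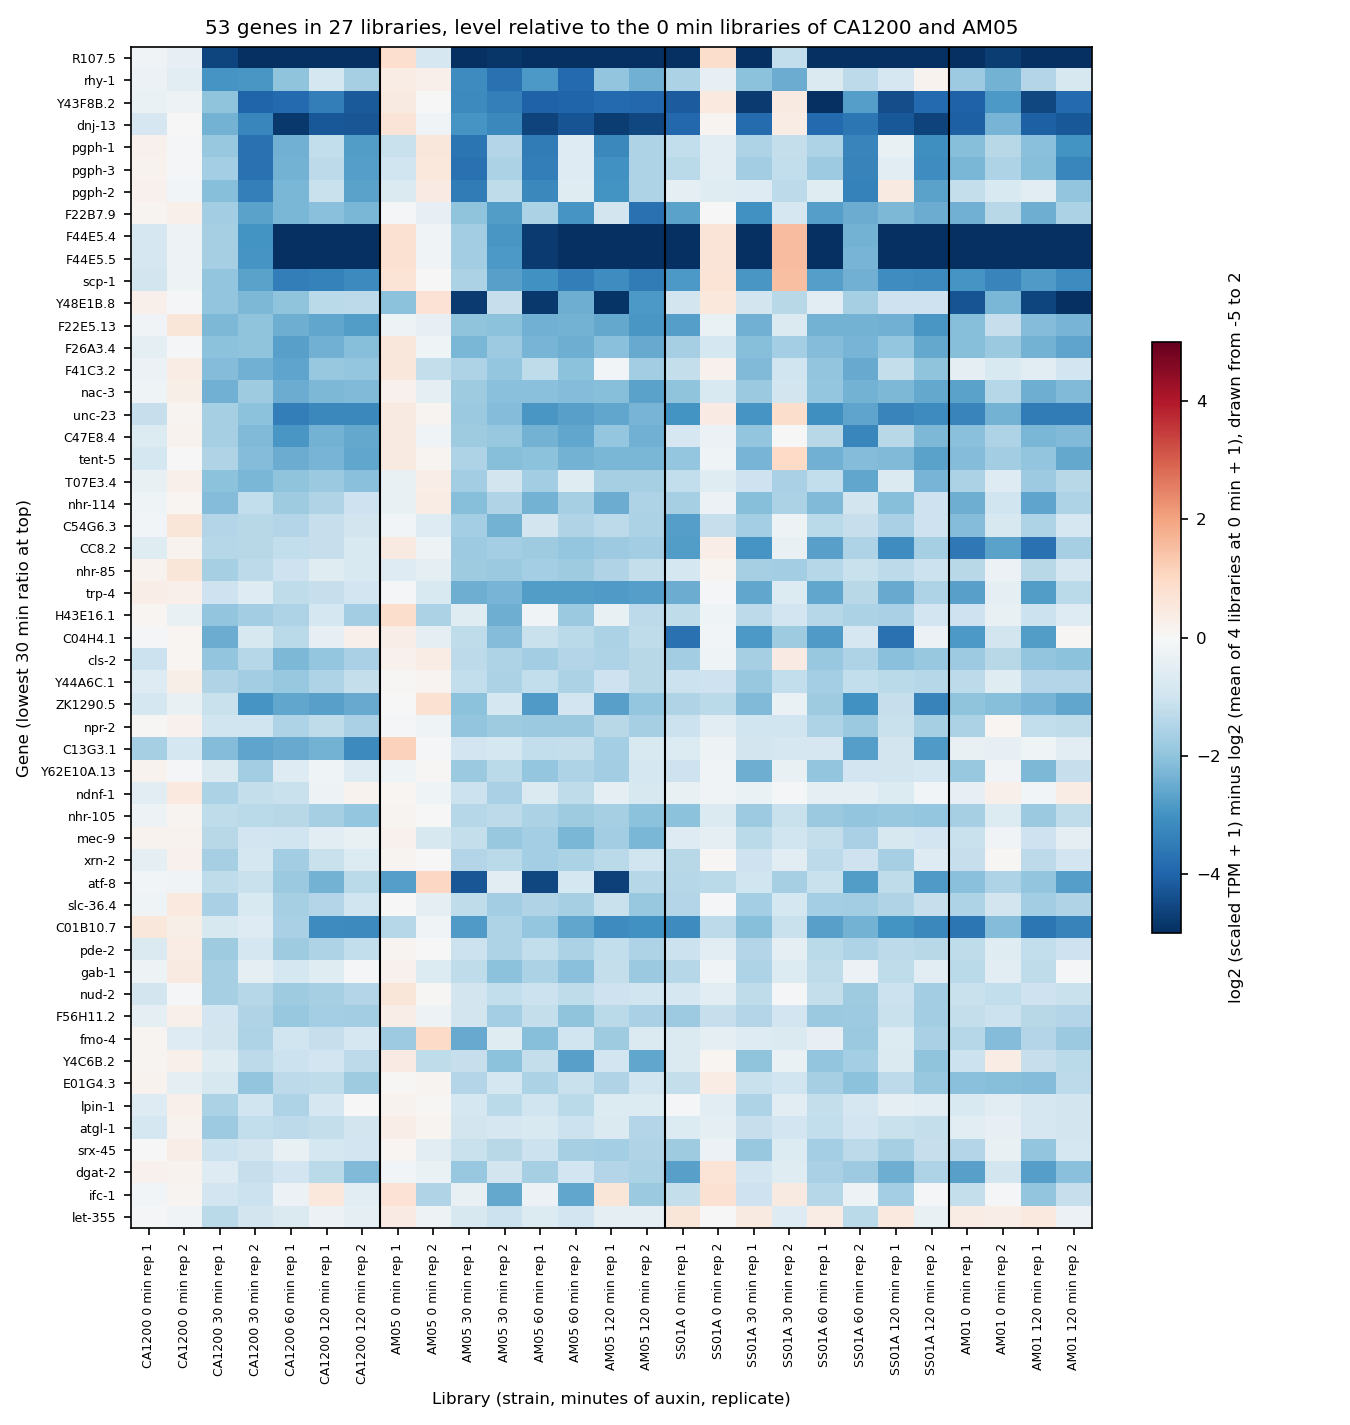
Level of each of the 53 genes (rows, lowest 30 min ratio at the top) in each of the 27 libraries (columns, grouped by strain and time), as log2 (scaled TPM + 1) minus log2 (mean of the 4 libraries of CA1200 and AM05 at 0 min + 1), blue for lower and red for higher, with values below -5 drawn at -5. Replicate 1 of SS01A and both libraries of AM01 are blue for many genes already at 0 min, while SS01A replicate 2 at 0 and 30 min is pale or red for many.

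The HSP70 genes among the 53 had the lowest 120 min ratios of all. F44E5.4, an HSP70 gene at chromosome II 11757042 to 11759248 in the coordinates of the files, stood at 1372 and 2055 scaled TPM in the 2 CA1200 libraries at 0 min, at 771 and 309 at 30 min, at 55.4 in the single library at 60 min and at 15.9 and 10.2 at 120 min. In AM05 it stood at 4161 and 2165 at 0 min, 721 and 326 at 30 min, 86.6 and 26.7 at 60 min and 15 and 5.19 at 120 min. The levels stepped down at each time without overlap in both strains, and the 120 min ratio to 0 min was 0.00818 in CA1200 and 0.00351 in AM05. F44E5.5, its neighbour, followed it closely, with 120 min ratios of 0.00809 and 0.00349.

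dnj-13, which encodes an HSP40 co-chaperone, stood at 228 and 414 in CA1200 at 0 min, 80.4 and 42.2 at 30 min, 13.8 at 60 min and 21.1 and 20.3 at 120 min. In AM05 the values were 646 and 371 at 0 min, 53.3 and 43.4 at 30 min, 15.6 and 20 at 60 min and 14.4 and 16.7 at 120 min. The 60 and 120 min levels lay below all 30 min levels in both strains. unc-23, which encodes a co-chaperone with a BAG domain known for muscle attachment, stood at 120.2 and 289 at 0 min and 27.9 and 27.5 at 120 min in CA1200, and at 365 and 290.2 at 0 min and 43 and 52.1 at 120 min in AM05. All 4 chaperone and co-chaperone genes were still low at 120 min in both strains.

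Most other heat shock genes were not lower at 30 min by the limit of 0.5. Of 13 inducible heat shock genes found, 7 were within the limits on chromosome, span and starting level. Of these, 3 were among the 53 genes (dnj-13, F44E5.4 and F44E5.5). The 8 others that reached 5 scaled TPM at 0 min, whatever their span, had 30 min ratios of 0.857 to 2.98 in CA1200 and 0.448 to 1.17 in AM05. hsp-70 went from a mean of 76.1 scaled TPM to 229 in CA1200 and from 246 to 192 in AM05, and hsp-16.2, a small heat shock protein gene, from 502 to 1205 and from 1202 to 1084. hsp-110, an exchange factor for HSP70, had ratios of 0.857 and 0.448. Of 18 constitutive chaperones and co-chaperones found, 14 were within the limits, and unc-23 was the 1 member. The 16 others at that level, whatever their chromosome and span, had ratios of 1.01 to 1.93 in CA1200 and 0.734 to 1.47 in AM05.

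The summed level of the heat shock genes outside the 53 moved strongly between libraries. At 0 min it was 9253 and 11555 scaled TPM in CA1200, 22223 and 17255 in AM05, and 69 and 18973 in SS01A. AM01 had 113.8 and 341 at that time. At 30 min it was 25940.0 and 8292 in CA1200 and 21999.7 and 10233 in AM05. At 120 min it was 842 and 165 in CA1200 and 353 and 125 in AM05. The sum was thus high at 0 and 30 min and low at 120 min in the strains that chose the genes, and near the low end throughout in AM01. At 30 min, where all 53 genes were lower, it was above its 0 min value in CA1200 replicate 1, nearly equal to it in AM05 replicate 1 and below it in replicate 2 of each strain. What part this state of the 0 min worms has in the values of the 53 genes was not tested.

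R107.5, a gene with a sequence name only at chromosome III 9051513 to 9053708, had the lowest 30 min ratios of all 53. It stood at 639.6 and 549 in CA1200 at 0 min, 29.6 and 15.9 at 30 min, 13.6 at 60 min and 19 and 13 at 120 min, and at 1317 and 406 at 0 min, 19.1 and 23.8 at 30 min, 12.4 and 14.3 at 60 min and 11.6 and 11.7 at 120 min in AM05. The levels at 0 and 30 min lay far apart in both strains, with 30 min ratios of 0.0399 and 0.026. Its divergent neighbour cls-2, which encodes a CLASP microtubule-binding protein, was lower by less, with ratios of 0.408 and 0.303. Y43F8B.2 stood at 667 and 707 in CA1200 and 1152 and 821 in AM05 at 0 min and at 205 and 51.2 in CA1200 and 90.9 and 78.4 in AM05 at 30 min. The 2 CA1200 libraries at 30 min differed there, replicate 1 being the higher.

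rhy-1 was higher at 120 than at 30 min in both strains but stayed below its start. It stood at 21.2 and 17.6 in CA1200 at 0 min, 2.54 and 2.63 at 30 min, 5.63 at 60 min and 13.6 and 7.53 at 120 min. In AM05 it stood at 34.1 and 31.3 at 0 min, 2.09 and 1.02 at 30 min, 2.73 and 0.852 at 60 min and 5.88 and 4.14 at 120 min. The 120 min levels lay above all 30 min levels and below all 0 min levels in each strain. It was the 1 gene of the 53 whose mean (scaled TPM + 1) at least doubled from 30 to 120 min in both strains, by ratios of 3.23 and 2.35. The 30 min libraries in these ratios chose the genes for low values, and the share of eligible genes that doubled was not counted. Of 15 hypoxia pathway genes found, 9 were within the limits on chromosome, span and starting level, and rhy-1 was the 1 member. The 12 others that reached 5 scaled TPM at 0 min had median 30 min ratios of 0.971 in CA1200 and 0.966 in AM05. Their ratios ran from 0.654 to 1.61 in CA1200 and from 0.331 to 1.76 in AM05. At the low end, egl-9, the oxygen sensor gene, had 0.688 and 0.416, and nhr-57, a known HIF-1 target, had 0.654 and 0.331.

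**Figure D3:**
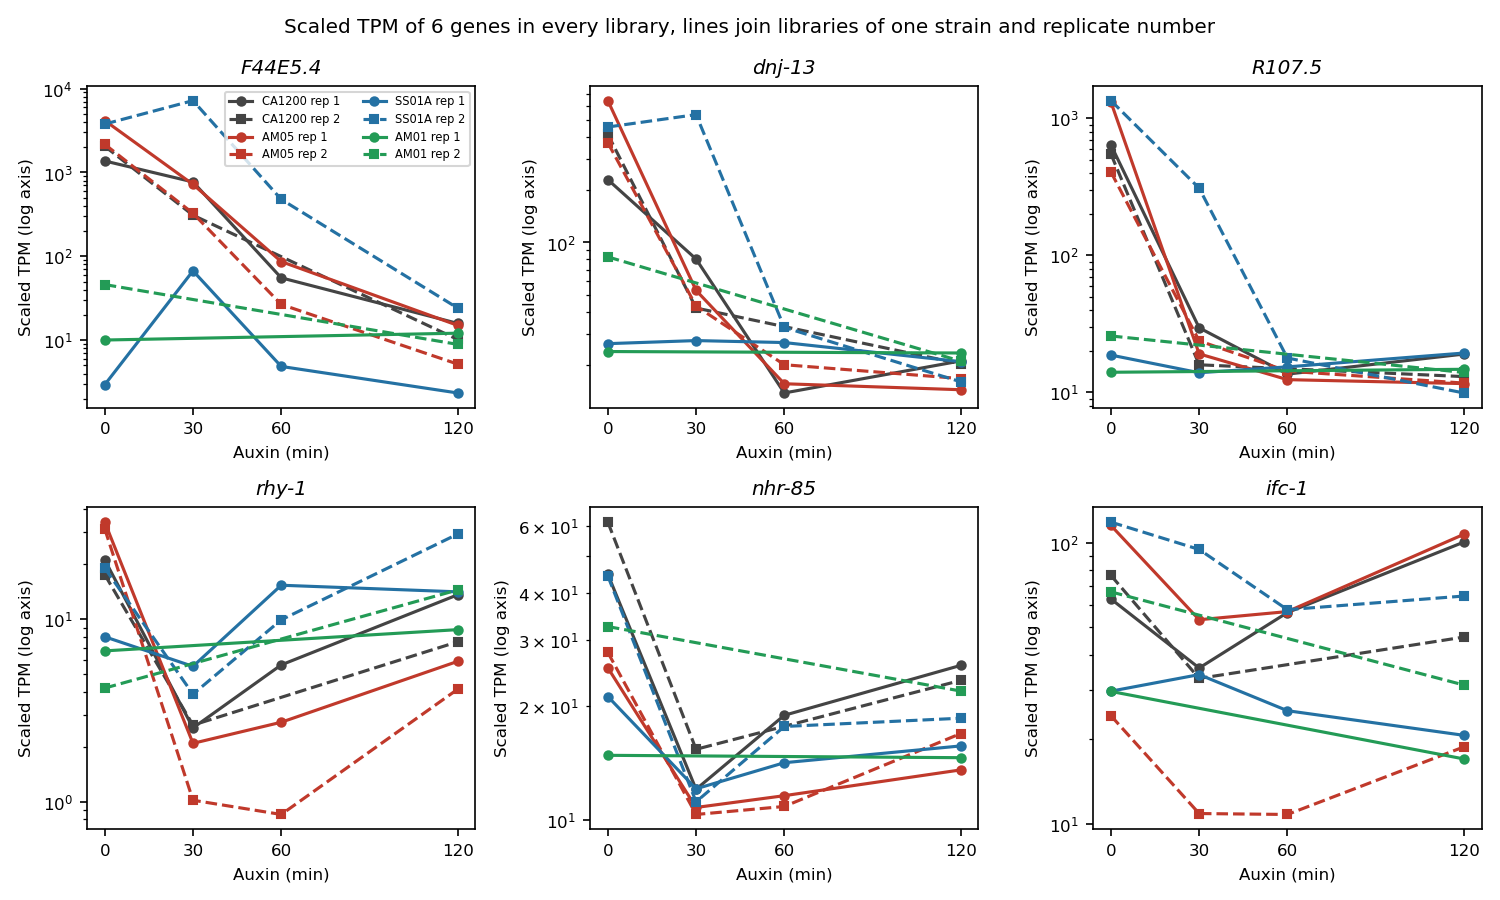
Scaled TPM (vertical, log axis) against minutes of auxin for F44E5.4, dnj-13, R107.5, rhy-1, nhr-85 and ifc-1 in every library, coloured by strain, solid lines for replicate 1 and dashed lines for replicate 2. CA1200 and AM05 are lower at 30 than at 0 min in each panel, replicate by replicate; SS01A replicate 2 stays high at 30 min for F44E5.4 and dnj-13 and is low for R107.5 by 60 min.

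5 genes at least halved again between 30 and 120 min in both strains, namely F44E5.4, F44E5.5, dnj-13, scp-1 and C01B10.7. This count uses 30 min libraries that chose the genes. The share of eligible genes was not counted, so it is a description only. scp-1 encodes the worm SCAP protein, which escorts the sterol regulator SREBP. It stood at 39.7 and 64 in CA1200 at 0 min, 18.3 and 11.1 at 30 min and 6.28 and 7.44 at 120 min, and at 122 and 76.8 at 0 min, 24.3 and 10.6 at 30 min and 7.81 and 5.73 at 120 min in AM05. Other genes of fat metabolism had higher 120 min ratios in part. lpin-1, the lipin gene that makes diacylglycerol from phosphatidic acid, stood at 28.7 and 54.1 at 0 min, 14.4 and 22.1 at 30 min and 25.3 and 44.8 at 120 min in CA1200 and had a 120 min ratio of 0.85 there and 0.574 in AM05. atgl-1, a triglyceride lipase gene, had 120 min ratios of 0.583 and 0.412, and dgat-2, a diacylglycerol acyltransferase gene, had 0.264 and 0.408.

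Of 278 nuclear hormone receptor genes found, 51 were within the limits on chromosome, span and starting level, and 3 of these were among the 53. nhr-85, related to the Rev-Erb receptors of mammals and part of the larval developmental timer, stood at 44.7 and 61.5 in CA1200 at 0 min, 12 and 15.4 at 30 min and 25.6 and 23.4 at 120 min, and at 25.3 and 27.8 at 0 min, 10.8 and 10.3 at 30 min and 13.5 and 16.9 at 120 min in AM05. It had its lowest values at 30 min in both strains. nhr-114, a receptor known from amino acid and vitamin B12 metabolism, had 30 min ratios of 0.338 and 0.281, and nhr-105 had 0.419 and 0.372. The bZIP factor gene atf-8 differed between the replicates of AM05, at 10.6 and 161 at 0 min and 3.11 and 54.2 at 30 min, while CA1200 had 71.7 and 69.3 at 0 min and 31.5 and 35.9 at 30 min.

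Differences of this kind between the AM05 replicates went beyond atf-8. At 0 min 14 of the 53 genes differed by at least 2-fold between the AM05 replicates and 5 did between the CA1200 replicates, while 16.3% and 6.09% of the eligible genes did. fmo-4, a flavin monooxygenase gene, stood at 29.5 and 209 and Y48E1B.8 at 7.12 and 53.9 in the AM05 replicates at 0 min, higher in replicate 2. ifc-1, an intermediate filament gene, stood at 115 and 24.3, higher in replicate 1. The median relative level of 22 molting cycle genes, which rise and fall within each larval stage, was -1.67 in replicate 1 and 0.99 in replicate 2 on the log2 scale. At 30 min this median was -2.47 and 0.27 in AM05. In CA1200 it was -0.28 and -0.23 at 0 min and -0.95 and -0.20 at 30 min, replicate 1 named first. Its part in the differences between replicates and in the 30 min ratios was not tested.

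The pgph genes, homologs of phosphoglycolate phosphatases, had like values. pgph-1 stood at 35.5 and 28.4 in CA1200 at 0 min and 7.52 and 1.43 at 30 min, and at 13.8 and 45.6 at 0 min and 1.51 and 10.4 at 30 min in AM05. In AM05 the 30 min value of replicate 2 lay near the 0 min value of replicate 1, though each replicate was lower at 30 min than at 0 min. The 30 min ratios of the 3 genes were 0.154 to 0.185 in CA1200 and 0.212 to 0.265 in AM05, and all 3 were still low at 120 min in both strains.

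Among RNA enzymes, tent-5, a gene of the noncanonical poly(A) polymerase family, stood at 162 and 303 in CA1200 at 0 min and 107.4 and 66.8 at 30 min, and at 412 and 336 at 0 min and 102 and 68.4 at 30 min in AM05. xrn-2, the nuclear 5′-3′ exoribonuclease gene, had 30 min ratios of 0.455 and 0.362. The transporter gene nac-3, of the dicarboxylate transporter family, stood at 32.1 and 47.1 in CA1200 and 44.3 and 27.6 in AM05 at 0 min and at 6.42 and 10.3 in CA1200 and 10.4 and 8.21 in AM05 at 30 min. The levels at 0 and 30 min did not overlap for tent-5 or nac-3 in either strain, and nac-3 was still low at 120 min with ratios of 0.206 and 0.203. slc-36.4, of the amino acid transporter family, had 30 min ratios of 0.409 and 0.409.

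Genes of channels, receptors and other neuronal proteins had 30 min ratios of 0.393 to 0.467 in CA1200 and 0.248 to 0.488 in AM05. trp-4, a mechanosensitive TRPN channel gene, stood at 13.8 and 12.8 in CA1200 at 0 min, 4.71 and 6.53 at 30 min and 4.26 and 4.94 at 120 min, and at 10.2 and 5.85 at 0 min, 1.17 and 1.31 at 30 min and 0.639 and 0.716 at 120 min in AM05. AM05 was lower than CA1200 at each of the 3 times. The others are mec-9, a matrix protein gene of the touch receptor neurons, npr-2, a neuropeptide receptor gene, gab-1, of the GABA receptor subunit family, and srx-45, a chemoreceptor-like gene. nud-2, which encodes the dynein cofactor NudE, had 30 min ratios of 0.476 and 0.376, and pde-2, a cyclic nucleotide phosphodiesterase gene, 0.442 and 0.389. These groups by role were drawn up after the genes were known and carry no test.

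The genes with a sequence name only made up much of the remainder. F26A3.4 stood at 116 and 149 in CA1200 and 231 and 134 in AM05 at 0 min and at 37.6 and 38.2 in CA1200 and 31.9 and 43.9 in AM05 at 30 min. C47E8.4 stood at 55.4 and 101 in CA1200 and 122 and 78.1 in AM05 at 0 min and at 27.3 and 18.5 in CA1200 and 25.4 and 23.1 in AM05 at 30 min. Both were still low at 120 min. F22B7.9, F22E5.13 and T07E3.4 had 30 min ratios of 0.198, 0.19 and 0.227 in CA1200, in that order, and of 0.23, 0.307 and 0.408 in AM05. The 21 genes without a letter name other than the HSP70 pair had ratios of 0.0399 to 0.466 in CA1200 and 0.0260 to 0.422 in AM05. Of these 21, 18 were still low at 120 min in CA1200 and 19 in AM05. F41C3.2 stood at 35.8 and 57.3 in CA1200 at 0 min and 9.1 and 7.67 at 30 min, and in AM05 at 66.3 and 18.9 at 0 min and 14.6 and 10.8 at 30 min, where the 0 min replicates differed. C54G6.3, near the level limit, stood at 10.3 and 18.1 at 0 min and 3.53 and 3.73 at 30 min in CA1200 and at 10.4 and 6.9 at 0 min and 2.81 and 1.4 at 30 min in AM05. CC8.2, H43E16.1, Y44A6C.1, ZK1290.5, C13G3.1, Y62E10A.13, F56H11.2, Y4C6B.2 and E01G4.3 complete the 21. C01B10.7, the shortest of the 53 at 710 bp, was lower again at 120 min, going from 17.2 and 13.9 at 0 min to 5.87 and 6.84 at 30 min and 0.378 and 0.315 at 120 min in CA1200.

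Few genes returned. ifc-1 stood at 63.2 and 76.6 in CA1200 at 0 min, 35.9 and 32.9 at 30 min and 101 and 46.2 at 120 min, and at 115 and 24.3 at 0 min, 53.3 and 10.9 at 30 min and 107.3 and 18.8 at 120 min in AM05. In AM05 its replicates kept their distance at each time, and within each replicate 30 min was below 0 and 120 min. At 60 min it stood at 57 and 10.8, which in replicate 2 was just under the 30 min value. ndnf-1 had 120 min ratios of 0.961 and 0.662, let-355 0.822 and 0.673, and C04H4.1 0.956 and 0.38. With lpin-1 and ifc-1 these are the 5 genes that returned in CA1200.

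The strain SS01A was not used to choose the genes. Its 2 replicates started from different levels. In replicate 2 at 0 min 6 of the 53 genes were at or below 0.5 of their mean over the 4 libraries of CA1200 and AM05 at 0 min, beside 2.43% of the eligible genes. In replicate 1, one of the libraries that stood apart, 40 were, beside 22.1%. High values in those 4 libraries helped choose the genes, so these counts are a description and nothing is read from the shares. F44E5.4 stood at 2.94 and 3777 in SS01A at 0 min, R107.5 at 18.7 and 1348 and dnj-13 at 26.4 and 456, replicate 1 named first.

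**Figure D4:**
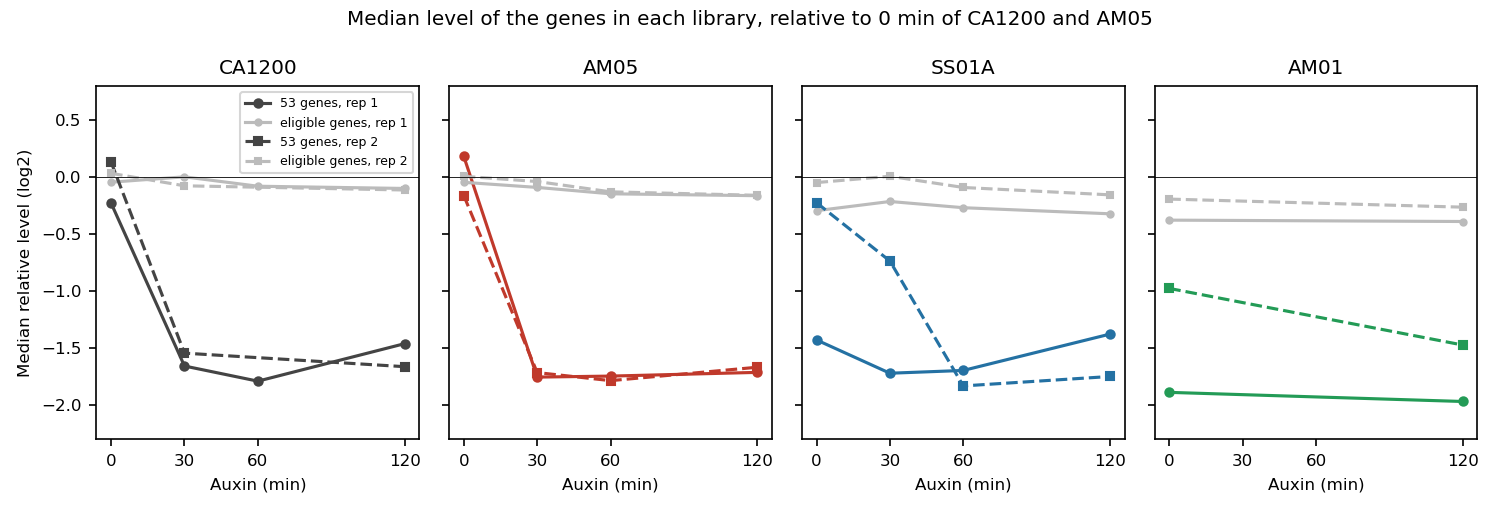
Median over the 53 genes (coloured) and over the 6221 eligible genes (grey) of the level relative to 0 min of CA1200 and AM05 (log2 scale, vertical) against minutes of auxin, 1 panel per strain, solid lines for replicate 1 and dashed lines for replicate 2. SS01A replicate 2 goes from -0.22 at 0 min to -0.74 at 30 min and -1.83 at 60 min, while SS01A replicate 1 is at -1.43 at 0 min and stays low.

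Within SS01A replicate 2 most of the genes became low between 30 and 60 min. At 30 min 10 genes were at 0.5 or less of their 0 min level, beside 0.675% of the eligible genes. At 60 min 41 were, beside 3.28%, and at 120 min 35 were, beside 4.5%. Between 30 and 60 min 34 genes passed from above 0.5 to 0.5 or less. At 30 min 16 genes were at or above their 0 min level, and 11 of these were at 0.5 or less at 60 min. In replicate 1 the same counts were 4 genes at 30 min beside 2.59%, 2 at 60 min beside 1.75% and 0 at 120 min beside 0.145%. The ratios of single libraries carry no replicate check.

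The chaperone genes were among those not lower in SS01A at 30 min. F44E5.4 stood at 67.1 and 7192 in replicates 1 and 2 at 30 min, at 4.86 and 478 at 60 min and at 2.35 and 24.2 at 120 min. Both replicates were at their highest at 30 min. dnj-13 stood at 27.5 and 537 at 30 min, 26.8 and 32.7 at 60 min and 20.9 and 16 at 120 min, and unc-23 at 33.4 and 494 at 30 min, 30.5 and 42 at 60 min and 26.3 and 29.1 at 120 min. In replicate 2 the 4 chaperone genes had 30 min ratios of 1.18 to 1.91 and 60 min ratios of 0.0737 to 0.128. The summed level of the heat shock genes outside the 53 went there from 18973 at 0 min to 75118 at 30 min, then was 25357 and 2460.3. In replicate 1 it was 69, 3598, 1166 and 56.2. Its part in the values of the 53 genes was not tested.

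Other genes were already down at 30 min in SS01A replicate 2. R107.5 stood at 13.9 and 309 in replicates 1 and 2 at 30 min and 15.4 and 17.8 at 60 min, and its 30 min ratio in replicate 2 was 0.23. rhy-1 stood at 8.02 and 19.1 at 0 min, 5.52 and 3.89 at 30 min, 15.4 and 9.94 at 60 min and 14.1 and 29.3 at 120 min, lowest at 30 min in both replicates and above its start at 120 min in both. nhr-85 stood at 21.2 and 44.3 at 0 min, 12.1 and 11.1 at 30 min, 14.1 and 17.7 at 60 min and 15.7 and 18.6 at 120 min, again lowest at 30 min in both replicates. Y48E1B.8 had a 30 min ratio of 0.27 in replicate 2 and 1.01 in replicate 1.

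**Figure D5:**
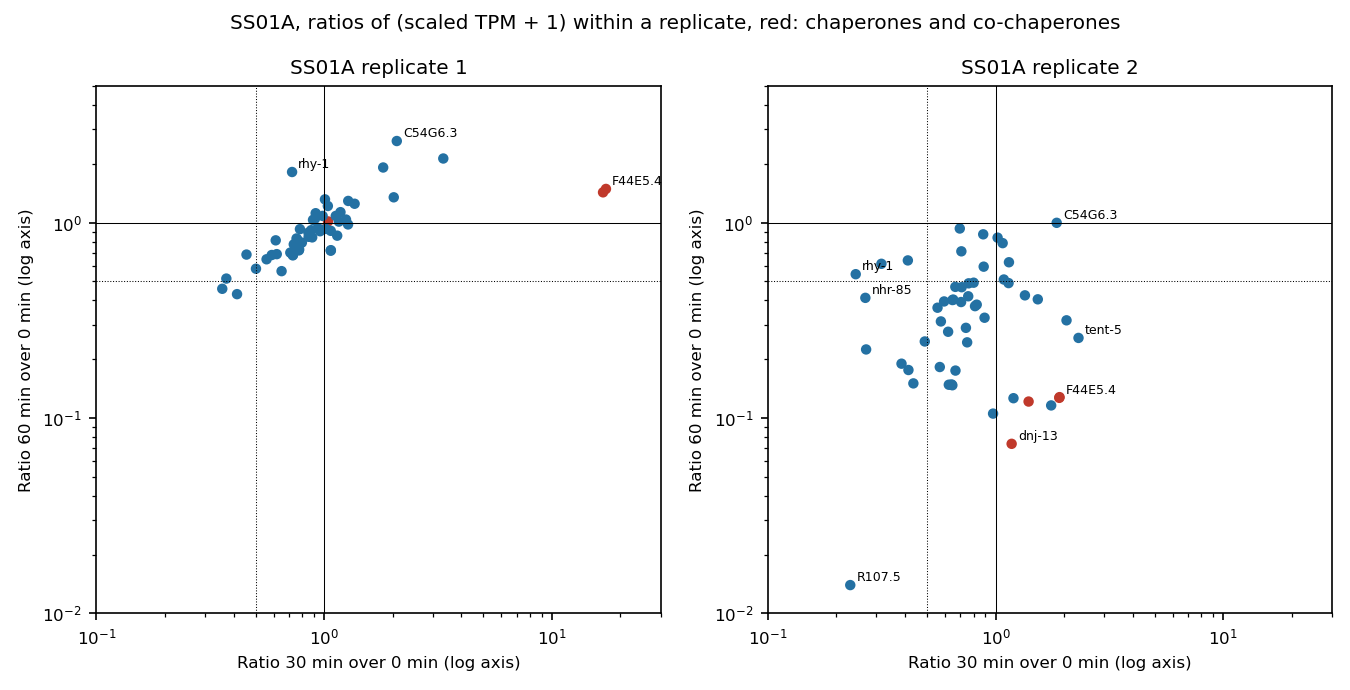
Ratio of (scaled TPM + 1) at 60 min over 0 min (vertical, log axis) against that at 30 min over 0 min (horizontal, log axis) in SS01A replicate 1 (left) and replicate 2 (right), 1 point per gene, 53 genes, with the 4 chaperone and co-chaperone genes in red; dotted lines mark 0.5 and thin lines 1. In replicate 2 the chaperone genes lie at 1.18 to 1.91 on the horizontal axis and at 0.0737 to 0.128 on the vertical axis.

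Tested over both replicates of SS01A, none of the 53 genes passed the threshold. The test was limma on log2(scaled TPM + 1) over 14271 genes, two-sided, with Benjamini-Hochberg adjustment, called at an adjusted p under 0.05. For 30 min against 0 min, limma called 0 of the 53, beside 0% of all genes, and 2 were lower and 0 higher at an unadjusted p under 0.05, beside 0.645% of all genes lower and 0.792% higher. For 60 min 0 were called, beside 0%, and 8 were lower and 0 higher unadjusted, beside 0.519% and 0.792%. For 120 min 0 were called, beside 0%, and 7 were lower and 0 higher, beside 0.476% and 1.17%. With a term for the replicate number within each strain, limma again called 0 of the 53 at each time. At an unadjusted p under 0.05 that fit had 8, 26 and 19 lower at 30, 60 and 120 min, and 3, 1 and 0 higher. The share of all genes at that limit was not counted for that fit, so these counts are a description. The authors' deposited tables for these 3 comparisons likewise called 0 of 52 genes, beside 0% of all their genes lower at each time and 0.00611%, 0% and 0% higher at 30, 60 and 120 min, and held 2, 10 and 7 lower at an unadjusted p under 0.05, beside 0.11%, 0.148% and 0.159% of their genes. The median log2 change of the 53 was -0.36, -0.83 and -0.75 at the 3 times, beside 0.01, -0.001 and 0.0004 over all genes, and 38, 50 and 50 of the 53 were negative. Log2 changes on this scale understate the fold in genes of low TPM. Single libraries decided these medians. The 30 min median was -0.93 without the 0 min library of replicate 1 and -0.77 without the 30 min library of replicate 2, and it was positive, at 0.16 and 0.20, without the 0 min library of replicate 2 and without the 30 min library of replicate 1. The 60 min median was -1.39 without the 0 min library of replicate 1 and -0.17 without that of replicate 2, and the 120 min median was -1.29 and -0.24.

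Without a replicate term, the 2 genes at an unadjusted p under 0.05 at 30 min were nhr-85 and rhy-1. nhr-85 had a log2 change of -1.33 ± 0.29 (SE, n = 2 per group, limma adjusted p = 1, unadjusted p = 4.22e-04), with both replicates lower. rhy-1 had -1.25 ± 0.47 (limma adjusted p = 1, unadjusted p = 0.0187), with both replicates lower. R107.5 had -1.26 ± 1.46 at 30 min, -3.22 ± 1.46 at 60 min and -3.45 ± 1.46 at 120 min. F44E5.4 had 2.52 ± 2.64 at 30 min and -3.73 ± 2.64 at 120 min, with replicates that started far apart at 0 min. F41C3.2 had -1.097 ± 0.64 at 30 min and -1.76 ± 0.64 at 60 min, and Y48E1B.8 had -0.94 ± 1.14 at 30 min. At the other end at 30 min stood C54G6.3 with 0.98 ± 0.51, C01B10.7 with 0.60 ± 0.57 and tent-5 with 0.42 ± 0.78, and C54G6.3 and C01B10.7 were higher in both replicates. Without replicate 1 of SS01A and AM01, which leaves 1 SS01A library per time that is assumed to vary like the other groups, limma called R107.5 lower at 60 min (log2 change -6.16 ± 0.70, adjusted p = 0.0241), beside 0.035% of all genes lower in that fit, and R107.5 and dnj-13 lower at 120 min (adjusted p = 0.0110 and 0.0275), beside 0.042%.

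Between 30 and 120 min in SS01A, limma called 0 of the 53, beside 0% of all genes, with 9 lower and 1 higher at an unadjusted p under 0.05, beside 1.53% lower and 1.69% higher. The median log2 change was -0.39, beside -0.003 over all genes, and 41 genes were negative. rhy-1 was the 1 higher, with an unadjusted p of 0.00107 and a limma adjusted p of 1. Without replicate 1 of SS01A and AM01 limma called 7 lower, namely F44E5.4, F44E5.5, dnj-13, unc-23, scp-1, tent-5 and R107.5, with log2 changes of -8.16 for F44E5.4 and -3.68 for tent-5 at the ends of the range, beside 0.119% of all genes lower in that fit. The median moved to -0.64 without the 30 min library of replicate 1, to -0.62 without the 120 min library of replicate 1 and to -0.09 without the 30 min library of replicate 2.

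AM01 was sampled without auxin and at 120 min. Many of the genes were low already without auxin: 47 of the 53 in replicate 1, one of the libraries that stood apart, and 26 in replicate 2, the mixed-stage library, were at or below 0.5 of the mean of CA1200 and AM05 at 0 min, beside 21% and 8.31% of the eligible genes. That mean is again one the genes were chosen on, so nothing is read from these shares. F44E5.4 stood at 10 and 46.1 without auxin and 12.1 and 8.91 at 120 min, R107.5 at 14 and 25.8 at 0 min and 14.8 and 14 at 120 min, and dnj-13 at 23.8 and 82.7 at 0 min and 23.4 and 21 at 120 min. Replicate 1 was flat, and replicate 2 was lower at 120 min for these 3 genes. In replicate 1 0 genes and in replicate 2 17 genes were at 0.5 or less at 120 min, beside 0.498% and 4.85% of the eligible genes. limma called 0 of the 53, beside 0.0491% of all genes, all of those higher. At an unadjusted p under 0.05, 0 were lower and 0 higher, beside 0.434% and 1.09%, and no deposited table of this comparison was used here. The median log2 change was -0.39, beside -0.01 over all genes. It was -0.04 without either library of replicate 2, the mixed-stage larvae, and -0.68 without either library of replicate 1. rhy-1 went the other way, from 6.71 and 4.2 to 8.78 and 14.5.

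Within AM05, the step from 60 to 120 min used libraries outside the choice of the genes. limma called 0 of the 53, beside 0% of all genes, and at an unadjusted p under 0.05 0 were lower and 1 was higher, beside 0.35% and 0.68%. The gene was rhy-1, with values of 2.73 and 0.852 at 60 min and 5.88 and 4.14 at 120 min and an unadjusted p of 0.0256. No deposited table of this step was used here. The median log2 change was 0.01, beside 0.02 over all genes, with 26 genes negative and 27 positive, and it lay between -0.02 and 0.08 when single libraries were left out.

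At 120 min AM05 and CA1200 could be compared with each other. mec-9 stood at 6.94 and 8.28 in CA1200 and 2.54 and 1.47 in AM05, without overlap, and had the lowest adjusted p of the 53, a log2 difference of -1.54 ± 0.35 (SE, n = 2 per group, limma adjusted p = 0.0837), which misses the threshold in this fit. mec-9 is named here because of this value. With a term for the replicate number within each strain, limma called mec-9 (adjusted p = 5.57e-04) and 5 others of the 53 lower in AM05. In that fit 6.59% of all genes were called lower. The term takes the difference between the replicates of a strain out of the spread. A comparison between strains rests on that difference, so nothing is read from these calls. No source says that equal numbers mark shared cultures. Without that term limma called 0 of the 53, beside 0.245% of all genes, 0.161% lower and 0.0841% higher. At an unadjusted p under 0.05 4 were lower in AM05 and 1 higher, beside 4.13% and 3.42%. The authors' deposited table called 2 of 51 lower, trp-4 (log2 difference -2.79, adjusted p = 7.37e-08) and mec-9 (-1.93, adjusted p = 0.0163), beside 0.685% of its genes. Without replicate 1 of SS01A and AM01 limma called trp-4 (log2 difference -1.74, adjusted p = 0.0329), beside 0.28% of all genes lower in that fit; trp-4 with them had the same difference and a limma adjusted p of 0.481. The median log2 difference of the 53 was -0.25, beside 0.05 over all genes. Its sign rested on 1 library: without AM05 replicate 2 at 120 min the median was 0.04, and without CA1200 replicate 1 it was -0.15.

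Across 26 gene lists of pathways, families, tissues and stages, 8 of the 53 genes appeared, in 4 lists: inducible heat shock genes, constitutive chaperones, hypoxia and nuclear hormone receptors. The other 22 lists held 0 of the 53. Some are given here as genes found and genes within the limits on chromosome, span and starting level. Fasting and fat metabolism had 25 and 20, the endoplasmic reticulum stress response 21 and 13, and insulin signalling 17 and 5. Cuticle collagens had 178 and 74, cytochrome P450 genes 75 and 8, and cytosolic ribosomal protein genes 74 and 59. Only 53 of all 6221 eligible genes were members, so nothing is read from a 0 in lists of these sizes. The fat metabolism list did not hold scp-1, lpin-1, atgl-1 or dgat-2, which are among the 53. The ribosomal protein genes had 30 min ratios of 0.906 to 1.22 in CA1200 and 0.993 to 1.19 in AM05.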

How the data were processed

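The submitters' processing notes name DESeq2 1.30.0, Cufflinks 2.2.1, HTSeq 0.13.5, HISAT2 2.2.1 and CASAVA 1.8; for the genome build, none is named. Libraries were stranded poly(A) libraries of whole worms, per the labels' protocols. The deposited library files list TPM and FPKM per gene, per the file headers; FPKM served only to estimate depth. The authors' 4 deposited comparison tables used here hold log2 fold changes with their p-values, raw and adjusted, from DESeq2.

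TPM was scaled by the median ratio over 12832 genes above 0 in all 27 libraries. Sequence names were matched to a reference annotation for symbols, and 19903 of 20390 matched. limma 3.58.1 in R 4.3.3 was fitted to log2(scaled TPM + 1) for 14271 genes that reached a TPM of 1 in 2 or more libraries, with a mean for each of 14 groups and a mixed-stage term, leaving 12 residual degrees of freedom. Comparisons that reuse any of the libraries that chose the genes were not tested. On simulated data for SS01A at 30 min over 14271 genes, a log2 change of -1 was called in 2% of genes, -2 in 52%, -3 in 62% and 3 in 72%, with 4 false calls. The simulation used independent normal values with 1 spread per gene, pooled over all libraries, and changed only genes above a minimum level. The SS01A replicates differed more, with a median gap of 1.27 on the log2 scale over the 53 genes at 0 min, against 0.54 in CA1200. The rates may therefore not hold for SS01A, nor for genes below the minimum level of the simulation. Promoter motifs were not analysed here.

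The 53 genes, the gene lists and the role groups were chosen with earlier results of these data known. Genes were named by rule: the 20 lowest 30 min ratios, the 5 lowest and 5 highest changes in SS01A at 30 min, members of a list, the 3 genes inside and the 3 outside the limit, and those with the lowest and highest 120 min ratios; other members are named by role, after their values were seen. Alternatives were TPM as deposited, another pseudocount, other ratio limits, a replicate term and leaving out libraries.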

Additional observations from a re-analysis of the deposited data

Results flagged for a closer look

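For the following genes every replicate of one strain was higher than at 0 min and every replicate of another lower under the same comparison; in no case was the difference tested. Values are log2 ratios of (scaled TPM + 1) to 0 min, and the value given is the smaller of the 2 replicates that were higher. Several of the values are close to 0.

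At 30 min, SS01A was higher while CA1200 and AM05 were lower for F44E5.4 (0.93), F44E5.5 (0.93), C54G6.3 (0.89), C01B10.7 (0.19), dnj-13 (0.0563), ndnf-1 (0.0248) and unc-23 (0.0182). For F44E5.4 the values were -0.83 and -2.73 in CA1200 and -2.53 and -2.73 in AM05, and the other SS01A value was 4.11, in the replicate that was low at 0 min. The genes were chosen for being lower at 30 min in CA1200 and AM05, so that side of the comparison follows from the choice. What remains is that both SS01A replicates were above 0 min, and the share of eligible genes with this was not counted.

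At 120 min, rhy-1 was higher in SS01A (0.59) and in AM01 (0.34) and lower in CA1200, at -0.60 and -1.12, and in AM05, at -2.35 and -2.65. C54G6.3 was higher in SS01A (0.0941) and lower in CA1200 and AM05. scp-1 was higher in AM01 (0.12) and lower in the other 3 strains. ndnf-1 was higher in AM01 (0.12) and lower in AM05. The starting libraries of CA1200 and AM05 helped choose the genes for a high start, so the lower values in these strains are a description only.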

How the results depend on the processing

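The number of genes meeting the rule was 53. It was 24 with a ratio limit of 0.4, 96 with a limit of 0.6, 23 when each same-numbered pair had to meet the limit, 55 with TPM as deposited (51 shared with the 53), 64 with a pseudocount of 0.1, and 44 to 62 when single libraries were left out. The counts called by limma were 0 in the 7 comparisons and stayed 0 to 0 when single libraries were left out. They were 1, 2 and 7 for SS01A at 60 min, 120 min and 120 against 30 min, and 1 for AM05 against CA1200 at 120 min, without replicate 1 of SS01A and AM01, a setting added after the data were seen. With a replicate block, AM05 against CA1200 at 120 min called 6 (mec-9, nhr-114, Y48E1B.8, ndnf-1, trp-4 and gab-1, all lower in AM05). Their log2 differences were those of the main fit and their SEs were smaller, for mec-9 0.20 against 0.35 and for trp-4 0.32 against 0.68. The block takes the difference between the replicates of a strain out of the spread. A comparison between strains rests on that difference, so nothing is read from these calls. Why the replicates differ was not tested. No source says that equal replicate numbers mark shared cultures, though larvae were split between plates after washing. Deviations of same-numbered libraries correlated at 0.378 to 0.904 over all strains and at 0.785 to 0.887 in SS01A. The main fit holds no term for such a pairing. In SS01A at 30 min, leaving out single libraries gave log2 changes of -4.31 to 1.79 for R107.5, -1.24 to 2.08 for tent-5, -0.30 to 1.51 for C01B10.7, -2.42 to 7.43 for F44E5.5 and -2.43 to 7.47 for F44E5.4. TPM as deposited moved the median of all genes by up to 0.24 on the log2 scale. In the simulation with 2 replicates, a log2 change of -1 was rarely called.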
